A study of Mus musculus with 6 samples.

Results

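The genes that clear glutamate from the extracellular space and return it to neurons as glutamine were followed across ATAC-seq peak lists from astrocyte nuclei of the mouse primary visual cortex (V1). The set held 7 genes, *Slc1a2*, *Slc1a3*, *Glul*, *Slc38a3*, *Slc7a11*, *Slc6a11* and *Glud1*, named for their roles, and the rule that gathered their peaks used no measured value. A peak belonged to a gene when its summit, the base of highest signal, lay in the gene body or within 100 kb of it in the GENCODE annotation of mm10. By this rule 2770 of 1116429 peaks were members, between 437 and 506 in each list, and they fell into 402 of the 160874 sites compared, a site reaching 200 bp to either side of a summit and holding summits of at least 2 libraries. All mice were *GR fl/fl*, with both alleles of the glucocorticoid receptor gene flanked by recombination sites, and all were injected with an adeno-associated virus at P0 to P1 and collected at P21. The 3 GR-con libraries came from mice given AAV2/5-GfaABC1D-ΔCre, which carries an inactive recombinase, and the 3 GR-KO libraries from mice given AAV2/5-GfaABC1D-Cre. In both constructs the recombinase is followed by the elements T2A, EGFP, KASH and 4x6T, of which EGFP and KASH together label the nuclear membrane green. The GfaABC1D promoter, a short form of the *GFAP* promoter, drove both constructs, each library pooled V1 tissue from 3 or 4 mice, and nuclei were sorted for DRAQ5 and GFP, which selects transduced nuclei. The labels name these nuclei astrocytes.

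Astrocytes take up synaptic glutamate through the transporters GLT-1 and GLAST, convert it to glutamine with glutamine synthetase, and export the glutamine to neurons, which turn it back into glutamate or GABA. Part of the glutamate is instead oxidized through glutamate dehydrogenase, and a cystine-glutamate exchanger releases some of it again. Glucocorticoids act through GR, a nuclear receptor that binds DNA at a palindromic element, and glutamine synthetase is a classical glucocorticoid-induced enzyme in glia and retina. The comparison asks whether accessible sites around these genes differed once GR was deleted.

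The lists held between 179462 and 198929 peaks each, and read depth is not given in them. Normal scores of the peak ranks correlated at 0.899 to 0.905 between libraries of the same condition and at 0.877 to 0.884 across conditions. Of 7 astrocyte markers, 5 had a promoter peak in every library, with *Aqp4* and *Aldh1l1* lacking a summit within 1 kb of the annotated start, whereas 0 or 1 of 4 oligodendrocyte markers, 1 or 2 of 4 microglial markers, 3 or 4 of 6 neuronal markers, 2 of 3 endothelial markers and both oligodendrocyte precursor markers had one. The part of these other cell types in the results was not tested. The GR gene, *Nr3c1*, held 17 to 19 summits in GR-con and 19 to 23 in GR-KO, 2 of the 17 sites in its body passed limma by rank of −log10 p, and a peak list cannot show whether its floxed exon was lost. Among all sites that fell in GR-KO, 265 of 1350 (19.6%) held the palindromic GR element, against 1 of 1229 that rose.

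The 402 sites were spread unevenly over the genes. *Slc1a2* had 96, *Slc6a11* 76, *Slc1a3* 57, *Slc38a3* 54, *Slc7a11* 48, *Glud1* 44 and *Glul* 27. Relative to the length searched, *Slc1a2* was the densest, with 28.9 sites per 100 kb, and *Slc7a11* the sparsest, with 6.39. Of the 402, 246 lay in the body of some gene, away from its start, 27 within 500 bp of a start and 129 between genes. In rank they were close to the rest of the genome. The median site stood at percentile 41.3 of −log10 p within its list, averaged over the 6 libraries, against 44.9 for all sites, and 236 of 402 (58.7%) had a summit in every library, against 62.0% of all sites.

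**Figure D1:**
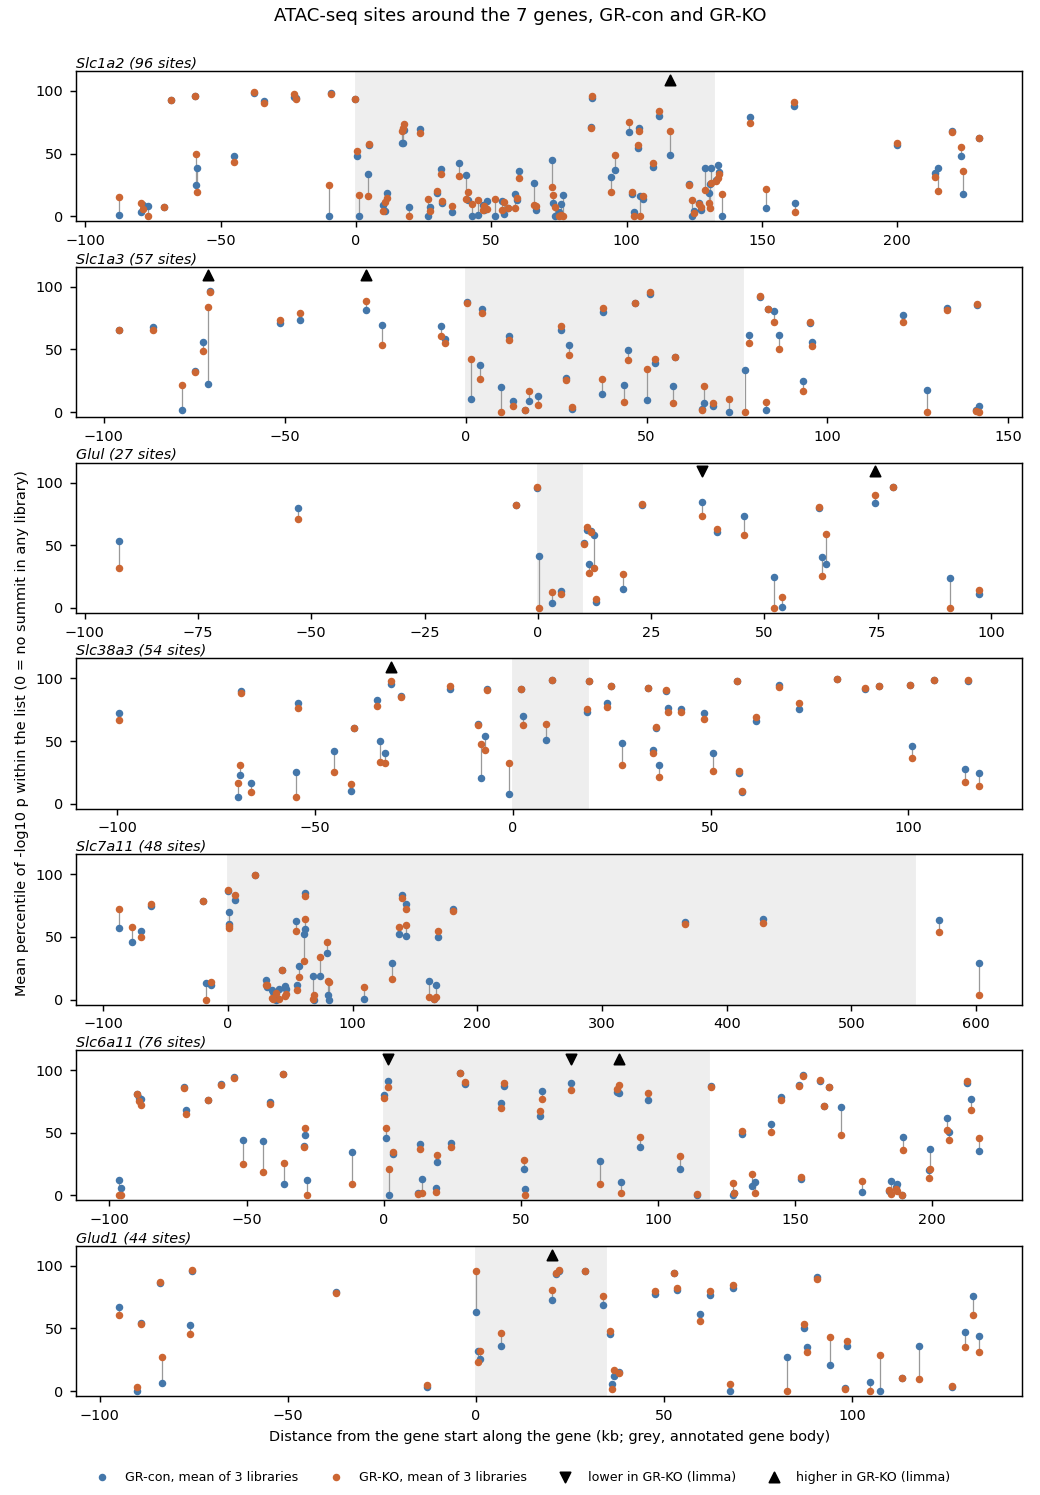
Every site of the 7 genes by its distance from the gene start (kb, along the gene) and the mean percentile of −log10 p within the list in GR-con (blue) and GR-KO (orange), n = 3 libraries each. Grey marks the annotated gene body, lines join the 2 means of a site, and triangles mark the 3 sites that fell and the 7 that rose; at most sites with high percentiles the blue and orange points coincide.

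Differences were measured on the rank of a peak within its own list, turned into a normal score, so that a difference of 1 is 1 standard deviation of all scores. By limma on the rank of −log10 p, with Benjamini-Hochberg adjustment over all sites and a limit of 0.05, 3 of the 402 member sites were lower in GR-KO (0.746%) and 7 were higher (1.74%). The background was 0.839% of all sites lower, 1350 in number, and 0.764% higher, 1229 in number. The share that fell was thus close to the background, and the share that rose rested on 7 sites at 6 genes. By rank of the deposited fold, 0 members passed limma in either direction, where 0.127% of all sites passed as lower and 0.0615% as higher. Without adjustment, 35 members (8.71%) had p under 0.05 by fold, against 12.1% of all sites. The median difference of the 402 sites was 0.0155 by −log10 p, against 0.00566 over all sites, and 208 of 402 differences were positive (51.7%, against 51.2%).

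Groups whose ranks did not overlap at all were more frequent. At 26 members every GR-KO library ranked below every GR-con library, and at 57 every GR-KO library ranked above. The background for these counts was 8.46% and 11.0% of all sites, and the members stood at 6.47% and 14.2%. Of the 57, 19 belonged to *Slc1a2*, and of the 26, 3 did. *Slc1a2* holds 96 of the 402 sites, and its median site stood at percentile 21.5, the lowest of the listed genes. Leaving out 1 library at a time left 0 member sites lower and 0 or 1 higher, while the counts over all sites dropped to between 175 and 815 lower and between 194 and 385 higher. When a library was counted by any peak over more than 200 bp of the site, with no summit needed in it, 0 members passed by rank of −log10 p, and without limma's variance trend 0 of the 10 sites passed (adjusted p between 0.131 and 0.402).

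**Figure D2:**
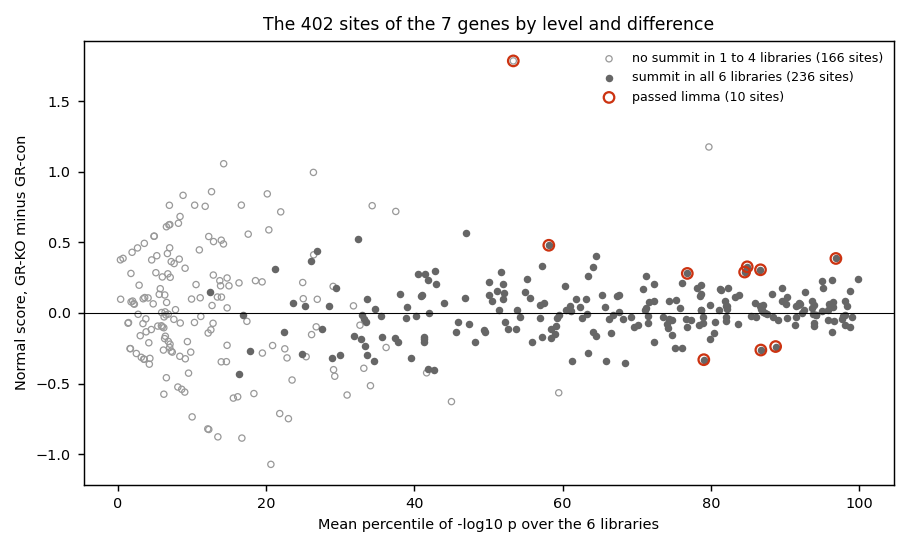
Difference in normal score (GR-KO minus GR-con, rank of −log10 p) of each of the 402 sites against its mean percentile over the 6 libraries. Filled points are the 236 sites with a summit in all libraries, open points the 166 others, red rings the 10 sites that passed limma; of these, 9 are filled points above percentile 50.

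At the sites nearest the gene starts, GR-con and GR-KO were alike within the spread of the libraries for most genes. *Slc1a2* encodes GLT-1, the main glutamate transporter of the forebrain. Its start carried a site centred 216 bp upstream (chr2:102658243-102658643), where −log10 p was 246, 269 and 213 in the GR-con libraries and 279, 265 and 204 in the GR-KO libraries. The groups overlapped fully, and the difference in score was 0.0331 (s.e. 0.0641, limma adjusted p = 0.889). At *Slc1a3*, which encodes GLAST, the transporter that astrocytes express from early development, the site 251 bp into the gene read 152, 142 and 130 in GR-con and 132, 134 and 135 in GR-KO. The GR-KO values lay inside the GR-con range. *Glul*, the glutamine synthetase gene, had a site 99 bp before its start with −log10 p of 319, 317 and 285 in GR-con and 365, 288 and 332 in GR-KO. Again the groups overlapped, and the score difference was 0.0647 (s.e. 0.0663, limma adjusted p = 0.727). The sequences below are the central 300 bases of the sites nearest the starts of *Slc1a2* and *Glul*. The *Slc1a2* stretch lies wholly upstream of the annotated start, and the *Glul* stretch covers its start. They are given on the plus strand of mm10 (chr2:102658294-102658593 and chr1:153899696-153899995), since both were among the strongest sites of their genes and neither differed:
Slc1a2 start: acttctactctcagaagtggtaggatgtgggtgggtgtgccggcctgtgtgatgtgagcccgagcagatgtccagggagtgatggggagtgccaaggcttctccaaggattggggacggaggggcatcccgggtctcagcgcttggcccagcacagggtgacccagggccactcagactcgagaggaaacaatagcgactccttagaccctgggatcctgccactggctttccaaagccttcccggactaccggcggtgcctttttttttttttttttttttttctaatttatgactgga
Glul start: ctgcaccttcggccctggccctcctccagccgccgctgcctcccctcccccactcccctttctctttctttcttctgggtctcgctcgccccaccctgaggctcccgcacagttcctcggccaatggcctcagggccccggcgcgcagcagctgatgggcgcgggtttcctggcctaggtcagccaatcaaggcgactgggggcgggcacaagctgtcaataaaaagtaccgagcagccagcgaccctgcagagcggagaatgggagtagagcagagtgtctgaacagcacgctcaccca
Neither of these 300-base stretches held a GR element or half-site. Of the other start sites, only that of *Slc7a11* held a half-site in its central 300 bases.

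The remaining starts were read the same way. *Slc7a11*, the exchanger that imports cystine for glutamate, had −log10 p of 143, 130 and 123 in GR-con and 177, 122 and 118 in GR-KO at its start, with overlapping groups. *Slc6a11*, the astrocytic GABA transporter GAT-3, read 70.6, 89.4 and 85.1 in GR-con and 68.3, 71.4 and 72.5 in GR-KO. Here the GR-KO range reached into the GR-con range through GR-con 1. At *Glud1*, the gene of glutamate dehydrogenase, the site 19 bp from the start read 283 and 291 in GR-con 1 and 2 and 318, 314 and 359 in GR-KO, and GR-con 3 had no summit in the site. That library was open there all the same, with a peak over the site (−log10 p of 341) whose summit lay 237 bp away. *Slc38a3*, which encodes the glutamine exporter SNAT3, had only a weak site within 1 kb of its start, 905 bp upstream, where −log10 p was 7.02, 10.1 and 8.66 in GR-KO, 6.21 in GR-con 3 and without a summit in GR-con 1 and 2. No start site passed the test (limma adjusted p between 0.238 and 0.994).

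**Figure D3:**
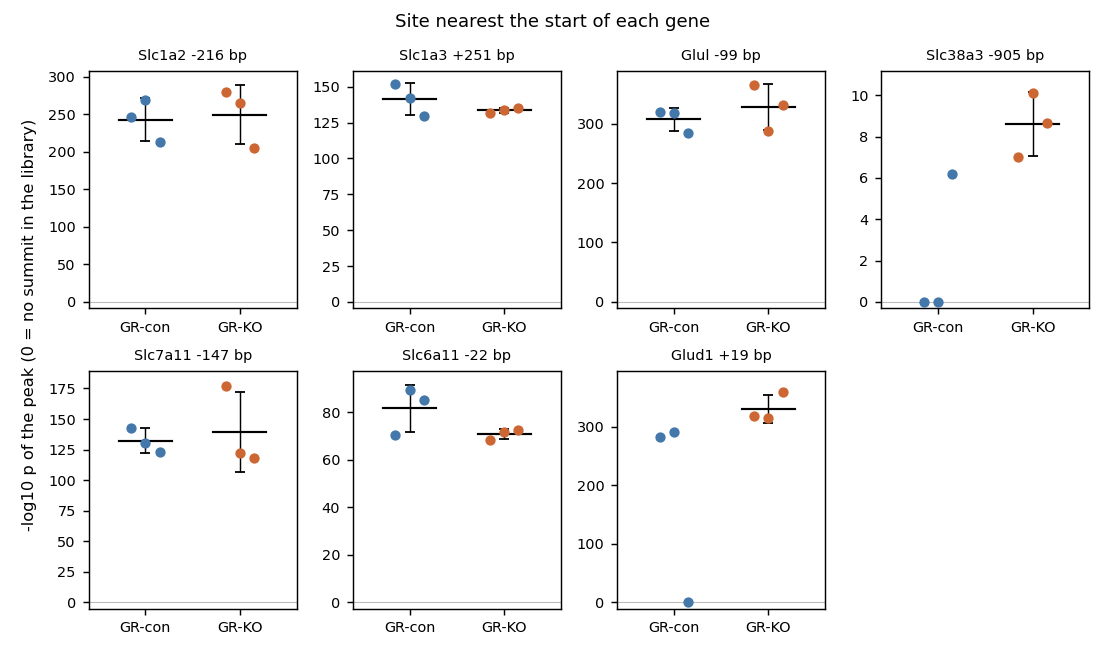
The −log10 p of the peak at the site nearest the start of each gene, 1 point per library, with mean and SD (n = 3) where every library of the group had a summit. GR-con and GR-KO points overlap for *Slc1a2*, *Slc1a3*, *Glul*, *Slc7a11* and *Slc6a11*; at *Glud1* and *Slc38a3* points at 0 are libraries without a summit in the site.

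Of the 2 glutamate transporter genes, *Slc1a2* had 1 site that passed. In an intron 115.9 kb from its start (chr2:102774326-102774726), −log10 p was 14.1, 14.9 and 20.0 in GR-con and 50.5, 38.8 and 29.7 in GR-KO. Every GR-KO library was above every GR-con library, the score difference was 0.479 (s.e. 0.116, limma adjusted p = 0.0439), and the deposited fold was 2.40 ± 0.169 in GR-con and 3.40 ± 0.402 in GR-KO (SD, n = 3). The summit pileup, the number of stacked reads at the summit, was 105, 112 and 122 in GR-con and 181, 167 and 142 in GR-KO. The strongest site of the gene lay elsewhere, 37.7 kb upstream in an intron of *Pamr1*, with −log10 p of 430, 475 and 435 in GR-con and 492, 528 and 470 in GR-KO. GR-KO 3 fell below GR-con 2 there, and the site did not pass (difference 0.155, s.e. 0.0886, limma adjusted p = 0.468). By rank of fold, the *Slc1a2* site of smallest p lay past the 3′ end at 145.6 kb, with a fold of 15.5 ± 1.13 in GR-con and 12.6 ± 0.537 in GR-KO (SD, n = 3; limma adjusted p = 0.217). *Slc1a2* also had 2 sites with a summit in every GR-KO and no GR-con library, both faint. At 51.5 kb, in an intron, −log10 p was 3.09, 5.42 and 5.52, and at 135.1 kb, past the 3′ end, it was 5.996, 5.756 and 4.174. At the latter, the GR-con libraries had summits of their own 768 to 835 bp away, with −log10 p of 6.86 to 11.7.

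*Slc1a3* had 2 sites that rose, both upstream of the gene with no coding gene in between. At 27.6 kb upstream (chr15:8738213-8738613), −log10 p was 72.1, 89.0 and 115 in GR-con and 162, 140 and 148 in GR-KO. The groups did not overlap, the difference was 0.326 (s.e. 0.0678, limma adjusted p = 0.0162), and the fold was 10.6 ± 1.30 against 14.8 ± 0.0536 (SD, n = 3). The second site, 71.1 kb upstream (chr15:8781628-8782028), had the widest difference of all members, 1.78 (s.e. 0.326, limma adjusted p = 0.00609), with −log10 p of 110, 104 and 103 in GR-KO, 41.5 in GR-con 1 and no summit in GR-con 2 and 3. It was a shoulder of a stronger neighbour. GR-con 2 and 3 had a peak over it, with the summit 432 and 440 bp away at −log10 p of 350 and 345, and when a covering peak sufficed the difference was −0.143 (limma adjusted p = 0.374), the opposite direction. That neighbour, 70.6 kb upstream and the strongest site of *Slc1a3*, read 377, 350 and 345 in GR-con and 286, 332 and 308 in GR-KO. Its GR-KO values were all below its GR-con values, yet the difference of −0.138 (s.e. 0.0657) did not pass (limma adjusted p = 0.376). Inside the gene, 9.7 kb from its start, 1 faint site had a summit in the GR-con libraries alone, at −log10 p of 6.45, 4.21 and 7.36.

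*Glul* had 1 site that fell and 1 that rose, both beyond its 3′ end. The site 36.2 kb from the start (chr1:153935932-153936332) read 123, 127 and 88.3 in GR-con and 70.7, 59.5 and 38.4 in GR-KO. GR-KO was lower in every library, by 0.331 in score (difference −0.331, s.e. 0.0799, limma adjusted p = 0.0421), with a fold of 14.4 ± 1.19 against 10.6 ± 2.19 (SD, n = 3) and a summit pileup of 149, 152 and 113 against 90, 83 and 62. The site at 74.5 kb (chr1:153974234-153974634) went the other way, with −log10 p of 129, 76.4 and 121 in GR-con and 195, 174 and 138 in GR-KO (difference 0.305, s.e. 0.0746, limma adjusted p = 0.0447). The groups were separate, with GR-KO 3 just above GR-con 1. Between and beyond them, 2 faint sites at 52.2 kb and 90.9 kb had a summit in every GR-con and no GR-KO library, with −log10 p of 5.37 to 9.64. The strongest site of the gene, 78.5 kb from the start, read 349, 443 and 283 in GR-con and 365, 348 and 307 in GR-KO and did not differ beyond its spread (limma adjusted p = 0.842).

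*Slc38a3* lies among close neighbours, with 14 coding genes within 100 kb, itself included. The site that rose lay 30.8 kb upstream, in an intron of the neighbouring gene *Sema3f* (chr9:107700168-107700568). Its −log10 p was 281, 336 and 294 in GR-con and 465, 400 and 432 in GR-KO, at percentiles 94.8 to 96.2 and 97.6 to 98.5 of the lists. The difference was 0.386 (s.e. 0.0718, limma adjusted p = 0.00726), and the summit pileup was 422, 478 and 438 against 616, 549 and 579. It was the strongest of the 10 sites that passed. The start of the neighbouring gene *Ifrd2*, 81.9 kb from the start of *Slc38a3*, was the strongest site of all members, at percentile 99.8, and did not pass (limma adjusted p = 0.65). In the body of *Slc38a3* itself, 5 sites were kept and 0 passed limma on the ranks. By summit pileup 1 of them passed, in an intron 8.4 kb from the start, at 121, 108 and 103 in GR-con and 134, 157 and 147 in GR-KO (limma adjusted p = 0.0137).

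*Slc6a11* had 3 sites that passed by rank of −log10 p, more than any other member by this rank, all in its introns. The site 1.4 kb from its start (chr6:114132461-114132861) fell, from −log10 p of 200, 204 and 170 in GR-con to 136, 126 and 114 in GR-KO (difference −0.238, s.e. 0.0581, limma adjusted p = 0.0447). The start itself, described above, did not. At 68.2 kb (chr6:114199218-114199618) the site read 175, 167 and 163 in GR-con and 99.3, 115 and 95.3 in GR-KO, the tightest pair of groups among the sites that fell (difference −0.263, s.e. 0.0576, limma adjusted p = 0.0234). Further on, at 85.7 kb (chr6:114216756-114217156), the site rose, from 97.4, 108 and 69.9 to 135, 128 and 159 (difference 0.289, s.e. 0.0703, limma adjusted p = 0.0436). The strongest site of *Slc6a11*, 27.9 kb into the gene, had overlapping groups (374, 464 and 391 against 415, 427 and 388).

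*Glud1* had 1 site that rose, in an intron 20.3 kb from its start (chr14:34330801-34331201). Its −log10 p was 46.3, 56.2 and 57.3 in GR-con and 82.5, 94.3 and 78.4 in GR-KO (difference 0.280, s.e. 0.0694, limma adjusted p = 0.0485), and its summit pileup was 173, 185 and 192 against 234, 258 and 232. The strongest site of the gene, 22 kb from its start, stood at percentiles of 96.3, 96.2 and 96.3 in GR-con and 97.4, 96.3 and 96.4 in GR-KO and did not pass (limma adjusted p = 0.671). Beyond the gene, 1 faint site at 82.8 kb had a summit in the GR-con libraries alone and 1 at 107.4 kb in the GR-KO libraries alone, where GR-con 2 had a summit 231 bp away. *Slc7a11* was the only gene with no site that passed by rank of −log10 p. The nearest to the limit lay 87.2 kb upstream, with −log10 p of 27.4, 16.0 and 30.0 in GR-con and 59.4, 44.7 and 45.5 in GR-KO (difference 0.403, s.e. 0.102, limma adjusted p = 0.0544). It passed on summit pileup (limma adjusted p = 0.00952), as did an exonic site 1.1 kb into the gene, which was lower in GR-KO (limma adjusted p = 0.0403). Its strongest site, 21.6 kb into the gene, read 528, 526 and 444 in GR-con and 532, 515 and 473 in GR-KO.

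**Figure D4:**
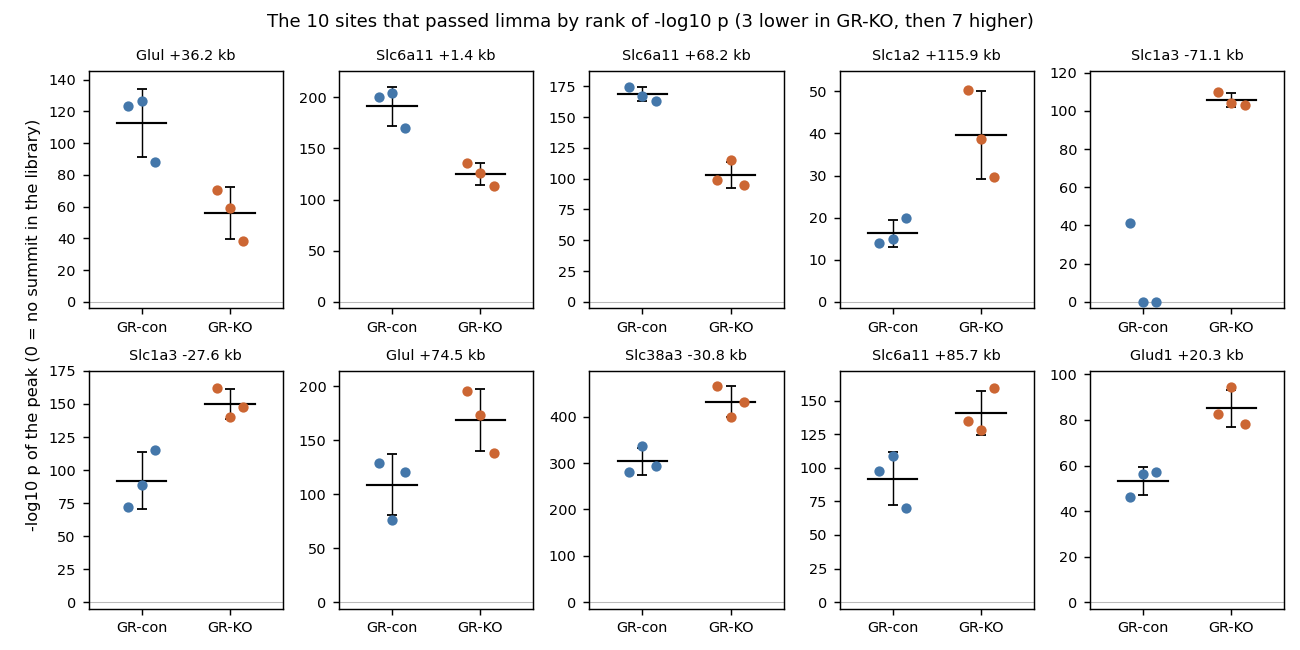
The −log10 p of the peak in each library at the 10 sites that passed limma by rank of −log10 p, 1 point per library, with mean and SD (n = 3) where every library of the group had a summit. The 3 groups of points that fell come first; in every panel GR-con and GR-KO points are separate, and 71.1 kb upstream of *Slc1a3* GR-con 2 and 3 stand at 0 because they had no summit in the site.

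Over the members, 5 sites had a summit in every GR-con and no GR-KO library (1.24%) and 3 the reverse (0.746%), against 1.15% and 0.622% of all sites. All 8 were faint, with −log10 p of at most 13.6. Those not yet named include 1 at *Slc6a11*, 96.4 kb upstream in an intron of *Atp2b2*, with 4.36, 3.78 and 5.89 in GR-con. Each was kept through the condition in which it has summits, and the other condition holds tied bottom ranks, so these sites are given as a description with no test. The summit pileup, taken at the 236 sites with a summit in all libraries and scaled between libraries by quantiles, gave 7 sites lower and 11 higher, against 2.94% of 99768 such sites lower and 3.25% higher. The 9 sites described above that passed by rank and had a summit in every library were among these 18 (limma adjusted p between 6.12e-05 and 0.00597). Among the other 9 were sites 45.5 kb from the start of *Glul*, where the pileup relative to the library median fell from 0.907 ± 0.208 to 0.562 ± 0.0842, and 50.9 kb into *Slc1a3*, where it rose from 5.72 ± 0.290 to 7.72 ± 0.0415 (SD, n = 3). In a bulk library, a higher peak in each nucleus and a larger share of nuclei with the site open cannot be told apart.

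The sequences of the 3 sites that fell and of 3 that rose, the strongest at *Slc38a3* and 1 for each glutamate transporter, are given over the central 300 bases on the plus strand of mm10, with the GR half-site AGAACA and the AP-1 motif TGANTCA, on either strand, in capitals. The first 3 are those that fell (chr1:153935983-153936282, chr6:114132512-114132811 and chr6:114199269-114199568), and the last 3 those that rose (chr2:102774377-102774676, chr15:8738264-8738563 and chr9:107700219-107700518):
Glul +36.2 kb: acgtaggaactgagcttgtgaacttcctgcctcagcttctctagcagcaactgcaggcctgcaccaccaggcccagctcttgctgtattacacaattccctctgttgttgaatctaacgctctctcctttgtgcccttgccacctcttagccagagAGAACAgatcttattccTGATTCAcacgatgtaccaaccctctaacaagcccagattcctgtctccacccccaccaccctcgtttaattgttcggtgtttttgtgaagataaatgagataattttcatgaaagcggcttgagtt
Slc6a11 +1.4 kb: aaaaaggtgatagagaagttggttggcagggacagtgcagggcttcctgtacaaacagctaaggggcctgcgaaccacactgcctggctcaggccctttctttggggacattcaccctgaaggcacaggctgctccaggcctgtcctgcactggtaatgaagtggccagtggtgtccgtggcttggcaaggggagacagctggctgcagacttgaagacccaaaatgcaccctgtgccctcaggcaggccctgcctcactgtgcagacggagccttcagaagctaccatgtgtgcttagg
Slc6a11 +68.2 kb: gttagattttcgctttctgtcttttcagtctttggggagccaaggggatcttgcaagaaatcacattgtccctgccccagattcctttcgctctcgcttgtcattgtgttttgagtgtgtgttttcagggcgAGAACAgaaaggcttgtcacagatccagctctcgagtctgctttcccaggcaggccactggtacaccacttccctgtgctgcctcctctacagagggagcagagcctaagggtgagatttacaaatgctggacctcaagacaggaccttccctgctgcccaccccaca
Slc1a2 +115.9 kb: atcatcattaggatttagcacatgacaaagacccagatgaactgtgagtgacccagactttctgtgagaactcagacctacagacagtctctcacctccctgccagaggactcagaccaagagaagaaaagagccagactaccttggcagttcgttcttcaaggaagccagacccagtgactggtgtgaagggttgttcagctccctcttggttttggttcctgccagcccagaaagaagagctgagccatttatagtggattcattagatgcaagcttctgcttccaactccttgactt
Slc1a3 27.6 kb upstream: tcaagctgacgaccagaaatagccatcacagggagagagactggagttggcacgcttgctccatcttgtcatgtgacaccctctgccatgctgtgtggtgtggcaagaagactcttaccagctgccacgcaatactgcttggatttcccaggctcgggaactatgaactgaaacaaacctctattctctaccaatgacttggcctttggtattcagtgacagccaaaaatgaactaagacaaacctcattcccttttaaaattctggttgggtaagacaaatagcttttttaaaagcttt
Slc38a3 30.8 kb upstream: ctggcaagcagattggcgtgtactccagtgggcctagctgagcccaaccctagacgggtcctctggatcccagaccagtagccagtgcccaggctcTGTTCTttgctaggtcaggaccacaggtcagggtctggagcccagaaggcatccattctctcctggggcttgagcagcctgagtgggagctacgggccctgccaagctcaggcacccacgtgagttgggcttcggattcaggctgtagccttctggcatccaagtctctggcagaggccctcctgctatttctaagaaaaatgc
The half-site stood in 2 of the 3 sites that fell and in 2 of the 7 that rose, those at *Slc38a3* and at 85.7 kb of *Slc6a11*. Of all sites that passed, it stood in 54.4% of those that fell and in 27.7% of those that rose. Over all 402 members it stood in 33.6%, against 30.6% of all sites. The AP-1 motif was in 10.7% of the members, against 11.4%, and the NFI palindrome, TGGC and GCCA spaced by 5 bases, in 2.99%, against 2.23%, with its longer form, TTGGC and GCCAA, in 0 members and 0.0833% of all sites. The full palindromic GR element, GNACA and TGTNC spaced by 3 bases, was in 3 members (0.746%), against 1.01% of all sites, and in 0 of the 10 that passed. Those 3 elements are shown with 8 bases to each side on the plus strand, the element in capitals (chr2:102712806-102712834, chr15:8653586-8653614 and chr14:34440553-34440581):
Slc1a2 +54 kb: ccacctcaGAACACTTTGTTCcaggcatc
Slc1a3 +57.2 kb: ggtgaggtGTACAAGTTGTTCctcacaca
Glud1 +129.9 kb: ttgtgtgaGCACAGTGTGTGCaagcgcag
None of the 3 differed by limma (adjusted p between 0.694 and 0.961), and all stood below the middle of the lists, at mean percentiles of 8.39, 13.9 and 41.3. A motif match is a description of letters in the window and not of binding.

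The genes differed in the local background against which their peaks were called. From the deposited fold and −log10 p of a peak, the pileup at its summit and the local background under it could be recovered, the pileup as a whole number for 100% of peaks in every list. In the body of *Slc1a2*, over 24 sites with a summit in every library, the median local background was 51.9 to 58.8 reads, against 6.86 to 8.16 over all such sites, so that it stood 7.74 ± 0.584 times above the library median in GR-con and 7.83 ± 0.389 times in GR-KO (SD, n = 3). Of all such sites, 99.0% had a lower local background than this median. The summits themselves were 2.05 ± 0.172 and 2.18 ± 0.0954 times the median pileup of their libraries, yet the median fold was 2.39, against 7.93 over all sites. These 24 sites stood at a median percentile of 52.8, against 68.2 over all such sites, although their summits held more reads than the median site. The bodies of *Glud1* (5.58 ± 0.523 and 5.96 ± 0.0646 times), *Slc1a3* (4.47 ± 0.134 and 4.25 ± 0.137 times), *Slc38a3* (4.04 ± 0.144 and 4.56 ± 0.253 times) and *Slc6a11* (2.11 ± 0.0564 and 2.47 ± 0.212 times) also had a raised local background. *Slc7a11* was nearer the library median (1.23 ± 0.0219 and 1.33 ± 0.0666 times), and *Glul* had no site in its body with a summit in every library. The sites of these bodies number 24, 7, 12, 5, 17 and 19, and they share libraries and neighbourhoods, so that the values are given as a description.

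**Figure D5:**
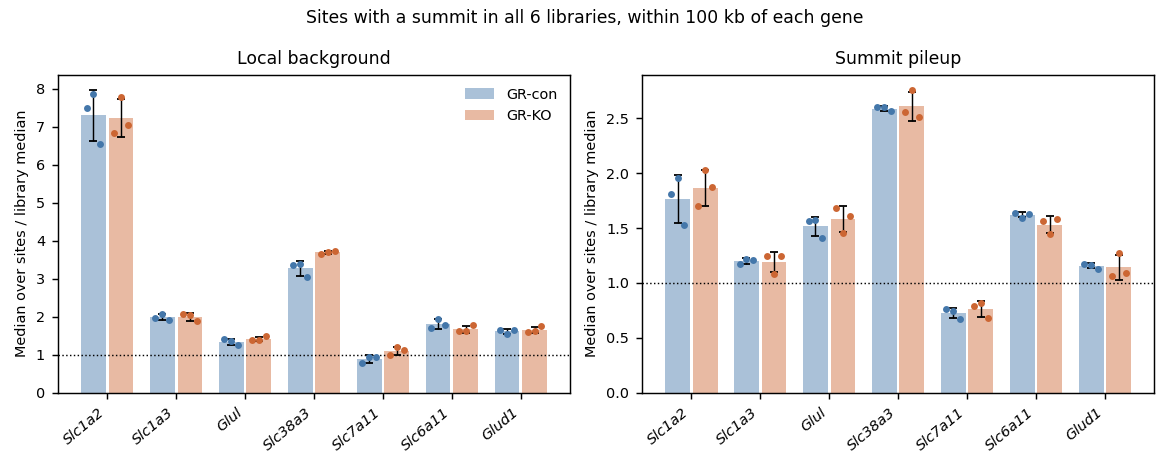
Median local background (left) and median summit pileup (right) of the sites of each gene within 100 kb, each divided by the library median over all sites with a summit in all 6 libraries (dotted line at 1); bars are means of 3 libraries, error bars SD and points libraries. *Slc1a2* has the highest local background in both conditions (7.30 ± 0.674 in GR-con and 7.22 ± 0.500 in GR-KO), and *Slc38a3* the highest pileup.

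The number of peaks near each gene was compared as a share of the list. *Slc1a2* had 5.45 ± 0.432 peaks per 10000 listed in GR-con and 5.46 ± 0.154 in GR-KO (SD, n = 3). *Glul* had 1.97 ± 0.0855 and 1.66 ± 0.185, the only gene whose groups did not overlap in this measure, with 1.89, 2.06 and 1.96 against 1.45, 1.74 and 1.79. By a two-sided exact permutation test p was 0.1 for *Glul*, the smallest that 3 against 3 libraries allow, and 0.525 after adjustment over the 7 genes. For the other 6 the exact permutation p lay between 0.2 and 0.9.

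Of the wider pathway, 27 further genes were read by the same rule, among them the neuronal and peripheral glutamate and neutral amino acid transporters, the glutaminases, the vesicular glutamate transporters, the GABA-synthesizing and GABA-degrading enzymes and pyruvate carboxylase. Within 100 kb of them lay 677 sites, of which 5 were lower (0.739%) and 5 higher (0.739%) by rank of −log10 p, near the 0.839% and 0.764% of all sites, and 0 passed by rank of fold. Of the 10, 2 are *Slc6a11* sites already described. Those at *Slc1a1*, *Slc1a7* and *Abat* had a summit in one condition alone. They were kept through that condition, against tied bottom ranks in the other, so they count as a description and not as a test result. The shares of all sites do not leave such sites out. The site of smallest adjusted p lay 17.5 kb upstream of the pyruvate carboxylase gene, annotated as *Pcx*, with −log10 p of 306, 276 and 225 in GR-con and 140, 101 and 134 in GR-KO (difference −0.484, s.e. 0.0682, limma adjusted p = 0.000618). Pyruvate carboxylase is the astrocyte enzyme that supplies new carbon for glutamate. A site 51.2 kb from the start of *Slc7a5*, which encodes a large neutral amino acid transporter, fell from 69.3, 67.2 and 51.4 to 27.2, 21.6 and 13.9 (limma adjusted p = 0.0152), and one 47.6 kb upstream of *Slc1a4*, a neutral amino acid transporter, rose from 170, 170 and 189 to 270, 259 and 261 (limma adjusted p = 0.00881). These 3 sites had groups that did not overlap.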

How the data were processed

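ATAC-seq peak lists of 3 GR-con and 3 GR-KO libraries were used. The authors ran ENCODE's pipeline for such data (v2.2.0, multimapping 0, 0.01 as the limit on peak p) on mm10, library by library; the aligner is not given in the sources used here. Each deposited list gives a capped score (not used), the fold over local background, a ratio, the −log10 p-value and the −log10 q-value from the authors' peak caller. A deeper library gives higher −log10 p.

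Windows of 200 bp on either side of each summit were laid down from the highest −log10 p rank to the lowest, without overlap, and kept as sites with a summit in at least 2 libraries. A library's value was its strongest peak with a summit in the site, and libraries without one tied lowest. Ranks became normal scores, compared with limma 3.58.1 (R 4.3.3; variance trend, no block, Benjamini-Hochberg over 160874 sites) and tested on simulated data. Pileup and local background solve the peak caller's fold, with 1 added to both, and its Poisson p (whole within a relative tolerance of 0.0001). Motifs were read with pysam 0.24.0, and exact permutation tests used scipy 1.17.1 in Python 3.11.15.

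The sites named are, for each gene, the one nearest its start within 1 kb, the strongest, the one of smallest p by either rank, and every one that passed or had a summit in all libraries of one condition alone. Sites that passed by pileup were chosen after their values were seen. The members and the lists of genes, markers and motifs were chosen with earlier results of these data known.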

Additional observations from a re-analysis of the deposited data

How the results depend on the processing

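The results depended on how a site was read. Counts are given lower, then higher in GR-KO. With a peak that covers more than 200 bp of the site in place of a summit, all sites gave 497 and 282 by rank of −log10 p and 445 and 242 by rank of fold, and members 0 and 0 by −log10 p and 1 lower by fold; the *Slc1a3* site 71.1 kb upstream reversed to −0.143 and 1 member site had a peak in every GR-KO and no GR-con library. Without the variance trend, all sites gave 1156 and 808 by −log10 p and 1073 and 769 by fold, and members 4 and 2 by −log10 p and 4 lower by fold. Those 4 and 2 are sites with a summit in one condition alone, kept through the condition where they are high, and the tied bottom ranks of the other leave it no spread, so they count as no result about the members; 0 of the 10 sites named as passing were among them. The summit pileup gave 2932 and 3242 for all sites and 7 and 11 for members, in place of both ranks. By fold, 169 sites were higher among those with a summit in all 6 libraries, an alternative chosen after seeing the data, and 153 among those with one in at least 3. Within 10 kb of a gene body lay 216 member sites, of which 2 were lower and 3 higher by rank of −log10 p. Over all sites the shares were 0.839% and 0.764%. Of the 216, 1 had a summit in GR-con alone and 2 in GR-KO alone, against 1.15% and 0.622% of all sites. With peaks of q under 0.01 only, 6 member sites within 100 kb had a summit in GR-con alone and 1 in GR-KO alone.

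The labels give both conditions the replicate numbers 1 to 3 and do not say whether same-numbered libraries belong together. Deviations of same-numbered libraries from their group means correlated at 0.0306, −0.00719 and 0.0256. These values show no shared deviation by number and cannot show how the libraries were collected. With a replicate block, all sites gave 726 and 523 by −log10 p and 0 and 0 by fold, and members 1 and 2 by −log10 p.

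Leaving out 1 library at a time, all sites gave 175 to 815 lower and 194 to 385 higher by −log10 p, and 0 to 3 lower and 0 to 0 higher by fold. Members gave 0 to 0 lower and 0 to 1 higher by −log10 p and 0 to 0 in either direction by fold. Between 6 and 11 members had a summit in GR-con alone and 4 to 8 in GR-KO alone, where fewer libraries have to hold or to lack a summit. These presence counts were not taken over all sites. A site that passed was left in 3 cases, the one 27.6 kb upstream of *Slc1a3* without GR-con 3, the one 71.1 kb upstream of it without GR-con 1 and the one at *Slc38a3* without GR-KO 2. Except for the reversal above, the 10 sites kept their direction under each alternative that could be run for them; the *Slc1a3* site 71.1 kb upstream lacks summits in 2 libraries and has no value for the summit pileup or among sites with a summit in all 6. The cause of these changes was not tested. The lists give no depth, so a site missing from a list is not shown to be closed.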
